A study of Homo sapiens with 4 samples.

Results

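The genes described here encode the TAM receptors AXL, MERTK and TYRO3 and their ligands GAS6 and PROS1. They were chosen by symbol, and all 5 had a row among the 28278 genes of the deposited count table. RNA was sequenced from A549 cells, a human lung adenocarcinoma line. A line with stable overexpression of CBX7 after lentiviral infection (OE_CBX7, 2 libraries) was set against a line made the same way with a control construct (Control, 2 libraries). The labels give the OE_CBX7 samples the genotype CBX7 overexpression and the Control samples WT. No sample is described as untransduced. Each group is 1 stable line, so an effect of CBX7 and a difference between the lines themselves cannot be told apart. The labels do not say whether a line's libraries are separate cultures. The spread on which every p-value rests is that between these libraries, and it may be technical.

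TAM receptors are receptor tyrosine kinases with immunoglobulin-like and fibronectin type III domains outside the cell. Their ligands are vitamin K-dependent proteins whose Gla domain binds phosphatidylserine on dying cells and membrane debris, while the other end binds the receptor. GAS6 activates every TAM receptor, whereas PROS1, also an anticoagulant cofactor in plasma, activates TYRO3 and MERTK. In macrophages and dendritic cells the system drives uptake of dying cells and dampens cytokine signalling. In lung adenocarcinoma, AXL is known for its association with a mesenchymal state and with resistance to EGFR inhibitors.

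Library totals were 90765502 and 88861255 estimated counts for OE_CBX7 libraries 1 and 2, and 88091494 and 69877585 for Control libraries 1 and 2. Levels are given as CPM, counts scaled to a common library total after correction with a TMM factor. A floor of 3 counts corresponded to between 0.0320 and 0.0440 CPM, and every TAM receptor and ligand lay far above it. CBX7 itself was at 19.1 and 17.2 CPM in OE_CBX7 cells, against 8.0 and 8.74 CPM in Control cells, a 2.16-fold rise (edgeR adjusted p = 0.000141). Of 11 markers of an epithelial lung adenocarcinoma line, 9 were tested, of which AKR1B10 and NKX2-1 were called higher, KRT7 was called lower and 6 were not called. The share called was 33.3%, beside 24.4% of all tested genes. The keratins KRT8 and KRT18 were abundant in both lines (KRT8 at 6649 ± 483 CPM in OE_CBX7 cells and 6904 ± 110 CPM in Control cells, SD, n = 2 each). KRT19 and EPCAM averaged 0.176 and 1.60 CPM in OE_CBX7 cells and 0.278 and 0.919 CPM in Control cells, and were not called. The alveolar surfactant genes SFTPC and SFTPB had no more than 10 counts in any library. No lymphocyte marker of 8 exceeded 1 CPM in any library, and the fibroblast and endothelial lists each summed to under 10 CPM. Within these lists, the fibroblast marker FAP was called lower, with 0 and 3 counts in OE_CBX7 libraries against 143 and 64 in Control libraries (edgeR adjusted p = 0.000398). The endothelial marker CDH5 was called higher, with 252 and 281 counts in OE_CBX7 libraries against 105 and 35 in Control libraries (edgeR adjusted p = 0.00868). These were 16.7% of the 6 tested fibroblast genes and 25% of the 4 tested endothelial genes, beside the same 24.4%. Of 12 macrophage markers, 3 exceeded 1 CPM: CD14 was called higher, and CD68 and ITGAM were called lower. Only 5 of that list were tested, of which 60% were called, beside 24.4% of all tested genes. The macrophage list summed to 27.9 and 27.2 CPM in OE_CBX7 cells against 167 and 172 CPM in Control cells, most of it CD68 (23.6 ± 0.0373 CPM in OE_CBX7 cells, 161.5 ± 4.84 CPM in Control cells), while the complement genes C1QA and C1QB were at 0 in all 4 libraries. The part of these markers in the results below was not tested. In bulk RNA, fewer cells with a transcript and less of it per cell cannot be told apart.

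The promoter windows of AXL and PROS1 are shown because these were the TAM genes whose transcripts changed. Each runs from 250 bases before to 50 bases after a transcript start in RefSeq (GRCh38.p14), printed 5′ to 3′ on the strand of the gene. Capitals mark the GC box bound by SP1 (GGGCGG, either strand), a factor reported to act at the AXL promoter.
AXL promoter, chr19:41218973-41219272, plus strand: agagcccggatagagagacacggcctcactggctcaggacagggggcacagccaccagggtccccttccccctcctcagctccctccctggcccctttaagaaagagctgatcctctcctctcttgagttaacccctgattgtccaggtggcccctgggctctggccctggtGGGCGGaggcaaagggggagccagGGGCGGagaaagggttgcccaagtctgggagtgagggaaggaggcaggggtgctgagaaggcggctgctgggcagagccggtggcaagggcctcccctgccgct
PROS1 promoter, chr3:93973847-93974146, minus strand: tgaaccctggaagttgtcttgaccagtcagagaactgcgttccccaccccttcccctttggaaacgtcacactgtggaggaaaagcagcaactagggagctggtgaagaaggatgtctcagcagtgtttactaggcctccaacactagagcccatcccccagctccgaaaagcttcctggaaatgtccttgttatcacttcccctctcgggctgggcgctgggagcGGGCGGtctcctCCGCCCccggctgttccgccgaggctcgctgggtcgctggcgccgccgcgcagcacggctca
Each of these windows held 2 GC boxes, a motif found in 45% of the 35116 windows of the table. The windows upstream of MERTK and GAS6 held 5 and 3. The first TYRO3 window held 3 and the second TYRO3 window 0. Also searched, on both strands, were the AP-1 site TGANTCA, the TEAD site GGAATG and the hypoxia element ACGTG, and the 2 windows shown held none of them. A second RefSeq start of AXL, at chr19:41226505-41226804, had 0 GC boxes. It had 1 TEAD match and 2 hypoxia matches, motifs found in 14% and 21.4% of windows. The first TYRO3 window held 1 AP-1 match, a motif found in 7.71% of windows. The first AXL window had 7 CpG dinucleotides, against a median of 14 over all windows. PROS1 had 18, MERTK 32, GAS6 42 and the first TYRO3 window 49, all more than that AXL start. The second AXL window had 17, near PROS1, and the second TYRO3 window had 10. These letters describe the sequence and are not evidence of binding.

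AXL, the receptor with the most transcripts, was lower in OE_CBX7 cells, and PROS1, the ligand with the most transcripts, was higher. AXL fell 2.38-fold and PROS1 rose 1.61-fold. The other TAM genes MERTK, TYRO3 and GAS6 did not pass the test. Thus 1 of 5 genes was called lower and 1 higher, beside 13.9% and 10.5% of all 17271 tested genes, or 24.4% in either direction. Over all genes 1809 were higher and 2399 lower with TMM factors, 2487 higher and 2033 lower with library totals, and 2386 higher and 2117 lower with upper quartile factors. Without OE_CBX7 library 1 the number of genes called higher was 1021, and without OE_CBX7 library 2 it was 1121. The TAM calls were the same in each of those fits.

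**Figure D1:**
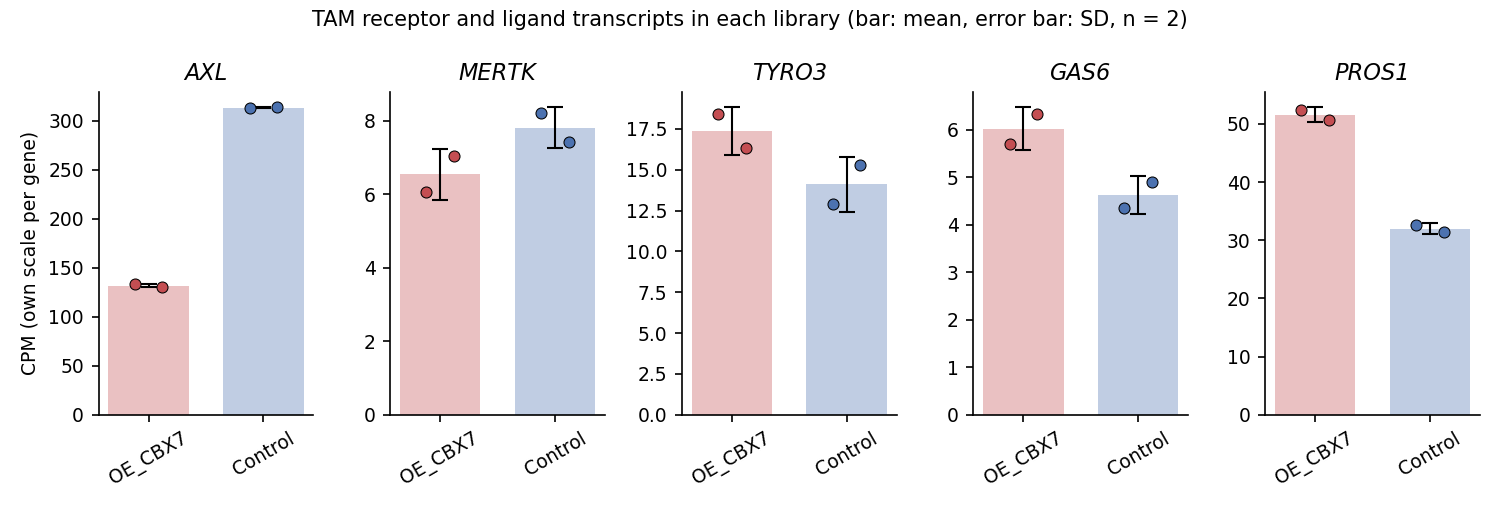
Normalised read counts (CPM, vertical axis, own scale from 0 for each gene) of the TAM receptors and ligands. Bars are means, error bars SD and points the 2 libraries of OE_CBX7 (red) and Control (blue) cells. AXL stood at 133 and 131 CPM in OE_CBX7 cells and 313 and 314 CPM in Control cells, and PROS1 at 52.5 and 50.7 CPM in OE_CBX7 cells and 32.6 and 31.3 CPM in Control cells.

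Among the receptors, AXL (chromosome 19, 41219223 to 41261766, GRCh38.p14) had 12466 and 11774 counts in OE_CBX7 libraries 1 and 2, against 26968 and 21398 in Control libraries 1 and 2. In CPM these were 133 and 131 in OE_CBX7 cells and 313 and 314 in Control cells. Both OE_CBX7 libraries lay below both Control libraries, and libraries of 1 group differed by far less than the groups did. With 2 libraries in each group, separation alone says little, here and for the genes below. The share of all genes that separate was not counted. The log2 fold change was -1.25 (SE 0.0912, 95% interval -1.45 to -1.05, adjusted p = 2.16e-07 by edgeR's quasi-likelihood test with Benjamini-Hochberg adjustment). As a fold this was 2.38 lower, with an interval of 2.08 to 2.72. Of the tested genes, 7.79% had a more negative change, and 95.3% had a lower mean CPM than AXL. The fall was called in every alternative, with log2 fold changes of -1.26 to -1.18.

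MERTK, the TAM receptor of phagocytic cells (chromosome 2, 111898607 to 112029561), had 567 and 635 counts in OE_CBX7 cells and 707 and 507 in Control cells. Scaled to depth, it was at 6.06 and 7.04 CPM in OE_CBX7 cells and 8.21 and 7.43 CPM in Control cells. The gap between the nearest libraries of the groups was smaller than the spread within either group. The log2 fold change was -0.26 (SE 0.200, interval -0.69 to 0.17, edgeR adjusted p = 0.400), so a fall of up to 1.61-fold or a rise of up to 1.13-fold lay within the interval.

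TYRO3, best known from the nervous system (chromosome 15, 41559212 to 41583589), had 1721 and 1470 counts in OE_CBX7 cells and 1111 and 1044 in Control cells. It was at 18.4 and 16.3 CPM in OE_CBX7 cells and 12.9 and 15.3 CPM in Control cells, with the nearest values of the groups close together. The log2 fold change was 0.30 (SE 0.153, interval -0.03 to 0.63, edgeR adjusted p = 0.183). The pseudogene TYRO3P had 0 and 7 counts in OE_CBX7 cells and 13 and 23 in Control cells. Of the 50-base words of TYRO3 transcripts in GENCODE 29, 2.10% also occur in TYRO3P. MERTK transcripts share no 50-base word with any other gene. Of the words of AXL, 1.10% occur in any other gene, and TYRO3 is not among the genes sharing most.

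Among the ligands, PROS1 encodes protein S (chromosome 3, 93873051 to 93973896). It had 4913 and 4573 counts in OE_CBX7 cells and 2810 and 2138 in Control cells, or 52.5 and 50.7 CPM against 32.6 and 31.3 CPM. Both OE_CBX7 libraries were higher than both Control libraries, with a gap many times the difference within a group. The log2 fold change was 0.69 (SE 0.113, interval 0.45 to 0.93, edgeR adjusted p = 0.000537), a 1.61-fold rise with an interval of 1.36 to 1.91. It was called in every alternative, with log2 fold changes of 0.67 to 0.76. The pseudogene PROS2P shares 8.53% of the 50-base words of PROS1 transcripts and was not analysed here, so the PROS1 count is uncertain to the extent that reads were exchanged with it.

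GAS6, the ligand of every TAM receptor (chromosome 13, 113820549 to 113864076), was sparse. It had 534 and 572 counts in OE_CBX7 cells and 375 and 335 in Control cells, equal to 5.70 and 6.34 CPM against 4.35 and 4.91 CPM. With 2 libraries in each group, the order of these values alone says little. The log2 fold change was 0.38 (SE 0.224, interval -0.10 to 0.86, edgeR adjusted p = 0.251), an interval that holds a rise of up to 1.82-fold. The antisense gene GAS6-AS1 overlaps GAS6, and the 2 share 8.07% of the 50-base words of the GAS6 transcript. It had 35 and 79 counts in OE_CBX7 cells and 35 and 31 in Control cells. Whether the libraries kept strand is not given in the sources used here, so reads from the shared stretch cannot be told apart between GAS6 and GAS6-AS1. GAS6-DT, which starts on the other side of the GAS6 promoter, had between 5 and 13 counts per library.

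Levels of different genes were compared per length, as CPM per kb of exon in GENCODE 29. In OE_CBX7 cells AXL averaged 26.9 ± 0.377 CPM per kb, PROS1 12.8 ± 0.311, GAS6 2.42 ± 0.181, TYRO3 1.93 ± 0.164 and MERTK 1.49 ± 0.158 (SD, n = 2). In Control cells AXL averaged 64.0 ± 0.0768 CPM per kb, PROS1 7.92 ± 0.225, GAS6 1.86 ± 0.158, MERTK 1.78 ± 0.125 and TYRO3 1.57 ± 0.189 (SD, n = 2). AXL and PROS1 kept the first and the second place in every library. In Control cells the values of MERTK overlapped those of GAS6 and those of TYRO3, while GAS6 and TYRO3 did not overlap each other. The order there changed when the longest transcript was used as the length, which put MERTK (1.98 CPM per kb) before GAS6 (1.86). In OE_CBX7 cells the order was the same with either length.

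**Figure D2:**
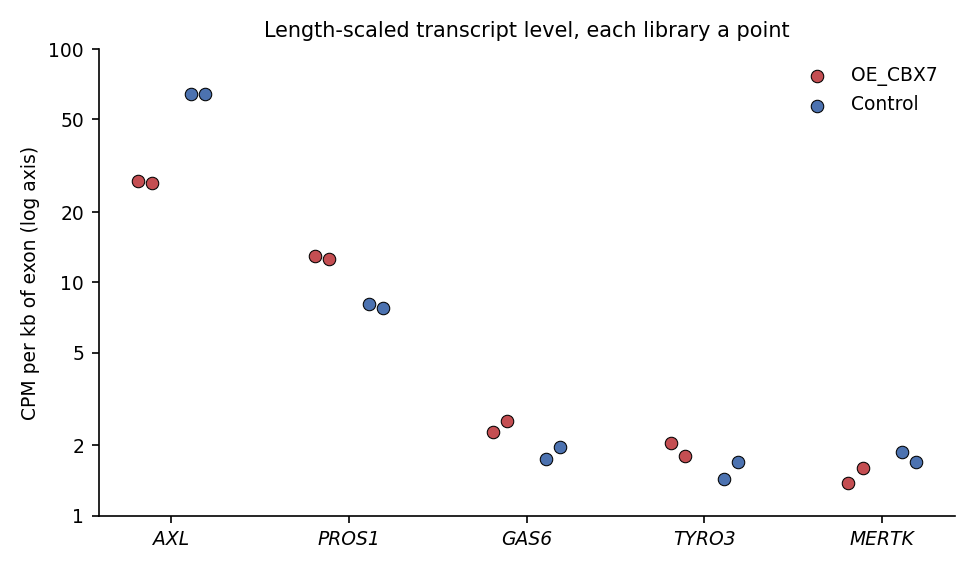
Transcript level per length (CPM per kb of exon, log axis) of the TAM genes, in order of their level in OE_CBX7 cells, with 1 point per library of OE_CBX7 (red) and Control (blue) cells. AXL at 26.7 to 27.2 CPM per kb in OE_CBX7 cells and 64.0 to 64.1 in Control cells lay above PROS1, and GAS6, TYRO3 and MERTK lay below 3 CPM per kb.

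AXL made up 88.8% and 88.7% of the summed receptor CPM per kb in OE_CBX7 libraries 1 and 2, against 95.09% and 94.97% in Control libraries. TYRO3 made up 6.67% and 6.02% in OE_CBX7 cells, against 2.13% and 2.52% in Control cells. MERTK made up 4.50% and 5.33% in OE_CBX7 cells, against 2.78% and 2.51% in Control cells. The receptor sum itself was 30.6 and 30.1 CPM per kb in OE_CBX7 cells and 67.3 and 67.5 in Control cells. The sum of receptor transcripts was thus smaller in OE_CBX7 cells and still mostly AXL, so it mainly restates the fall of AXL. Receptor protein was not measured here. Of the 2 ligands, PROS1 supplied 85.0% and 83.1% of the summed CPM per kb in OE_CBX7 cells and 82.2% and 79.7% in Control cells. The ligand sum was 15.3 and 15.1 CPM per kb in OE_CBX7 cells, against 9.83 and 9.73 in Control cells.

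AXL was then set against its paralogs and ligands within each library, where depth cancels. Per kb, AXL exceeded PROS1 2.09-fold and 2.12-fold in OE_CBX7 libraries 1 and 2, against 7.92-fold and 8.26-fold in Control libraries. It exceeded TYRO3 13.3-fold and 14.7-fold in OE_CBX7 cells, against 44.7-fold and 37.7-fold in Control cells. It exceeded MERTK 19.7-fold and 16.6-fold in OE_CBX7 cells, against 34.2-fold and 37.9-fold in Control cells. For GAS6 the values were 11.9-fold and 10.5-fold in OE_CBX7 cells, against 36.6-fold and 32.5-fold in Control cells. For each of these genes both OE_CBX7 ratios lay below both Control ratios. AXL is the numerator of every ratio and itself fell 2.38-fold, so they are not separate results. How many of all genes would separate in this way was not counted. An exact two-sided permutation test of 2 against 2 libraries gave p = 0.333 for each ratio, which is the smallest p the design allows.

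The difference between the change of AXL and that of each other TAM gene was also tested with limma across all genes, on log2 CPM minus that of AXL in the same library. The change of PROS1 exceeded that of AXL by 1.94 on the log2 scale (SE 0.104, interval 1.63 to 2.25, limma adjusted p = 0.00386). For GAS6 the difference was 1.63 (interval 1.21 to 2.04) and for TYRO3 1.55 (interval 1.11 to 1.99), both with a limma adjusted p of 0.00386. MERTK, the receptor nearest to AXL in its change, differed by 0.99 (interval 0.55 to 1.43, limma adjusted p = 0.00784). That call was lost without OE_CBX7 library 2 (0.87, limma adjusted p = 0.0529) and without Control library 2 (0.92, limma adjusted p = 0.0506). In this test 77.3% of the 17270 other genes were called, and 74.6% were called higher relative to AXL, so a difference from AXL is common to most genes and not particular to the TAM genes. The error of AXL itself enters every one of these differences.

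**Figure D3:**
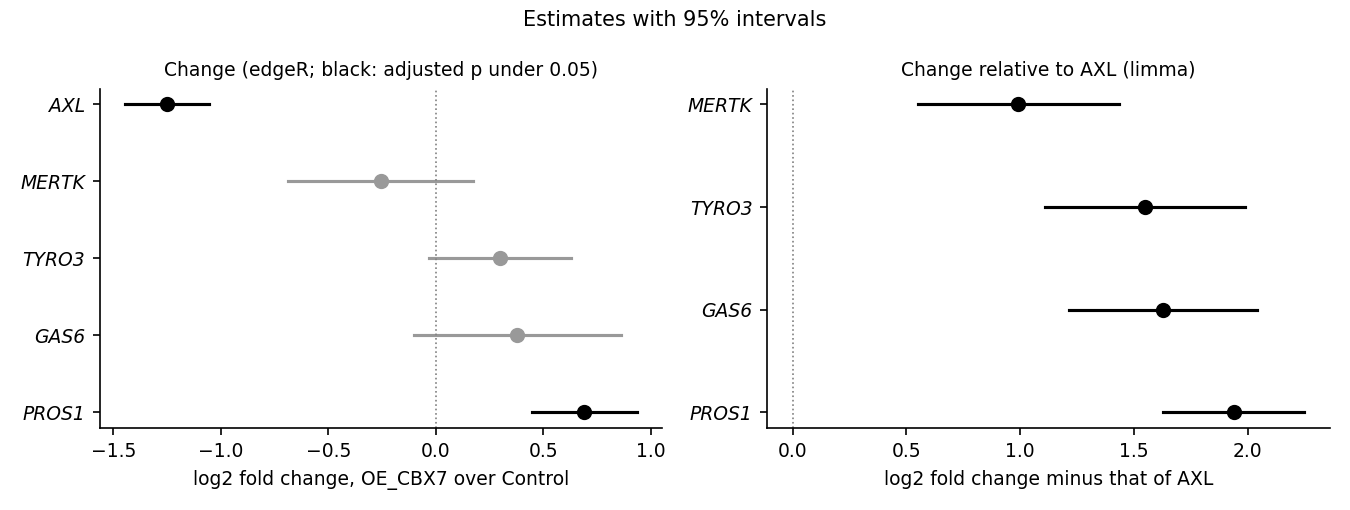
Estimates with 95% intervals. The left panel gives the log2 fold change of each TAM gene, OE_CBX7 over Control, in black where the edgeR adjusted p was under 0.05 and grey otherwise; the right panel gives the change minus that of AXL by limma. AXL at -1.25 and PROS1 at 0.69 lie on opposite sides of 0, and the intervals of MERTK, TYRO3 and GAS6 cross 0 on the left.

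Of 6 tested coding genes within 100000 bases of AXL, 1 was called higher, beside 10.5% of all genes, and the other 5 were not called. All 6 had fitted log2 fold changes above 0, where the median over all tested genes was -0.00015. CYP2F1, the farthest on the upstream side, had no more than 55 counts in any library. CYP2S1, the nearest on the upstream side and a cytochrome P450 gene, rose with a log2 fold change of 0.38 (edgeR adjusted p = 0.0224). HNRNPUL1, which begins 791 bases beyond the end of AXL, had a log2 fold change of 0.25 (edgeR adjusted p = 0.0708), and TGFB1 one of 0.25 (edgeR adjusted p = 0.176). Near PROS1, DHFR2, a dihydrofolate reductase gene 84026 bases away, rose with a log2 fold change of 0.52 (edgeR adjusted p = 0.0358). Near MERTK, TMEM87B fell with a log2 fold change of -0.40 (edgeR adjusted p = 0.0303), and ANAPC1 had one of 0.05 (edgeR adjusted p = 0.777). The neighbours named were chosen after their values were seen.

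**Figure D4:**
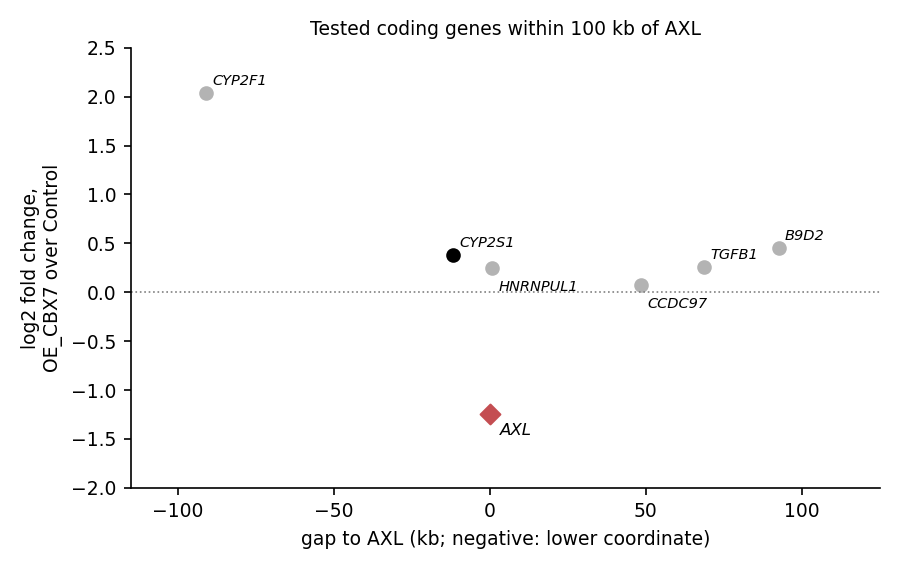
Log2 fold change, OE_CBX7 over Control, of tested coding genes (circles, black where the edgeR adjusted p was under 0.05, grey otherwise) against their gap in kb to AXL, which is drawn as a red diamond at 0. Among the genes plotted, AXL at -1.25 is the only one with a negative value, and of its neighbours only CYP2S1 was called.

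Genes whose profile over the 4 libraries lay nearest to that of a TAM gene were listed among 10700 genes with a mean of 5 CPM or more, by Euclidean distance of log2 CPM centred on the mean of each gene. Nearest to AXL were PFKFB4, TNIP1 and GTPBP2, at distances of 0.0481, 0.0493 and 0.0536, with log2 fold changes of -1.26, -1.28 and -1.29. Nearest to PROS1 were ADD3, STOX2 and HID1, at distances of 0.0276, 0.0401 and 0.0402. For MERTK they were MCUB, FOXF2 and GNG11, for TYRO3 PCNX3, BCR and DVL2, and for GAS6 GSTP1, COA3 and UBE2C. With 4 libraries in 2 groups, such likeness mostly restates the size of the change.

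Beyond the receptors and ligands, 115 genes of the pathway were listed in 9 groups by role. The lists were chosen with earlier results of these data known. The shares called below, in all lists and in each, are therefore descriptions and not tests. Of 109 tested, 15 were higher, 21 lower and 73 not called, or 33.0% called beside 24.4% of all genes. Their median log2 fold change was -0.02, against a median over all tested genes of -0.00015. With library totals in place of TMM the split was 20 higher and 15 lower, and with upper quartile factors 20 and 16. Without OE_CBX7 library 1 it was 10 higher and 14 lower, and without OE_CBX7 library 2 it was 13 and 14.

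**Figure D5:**
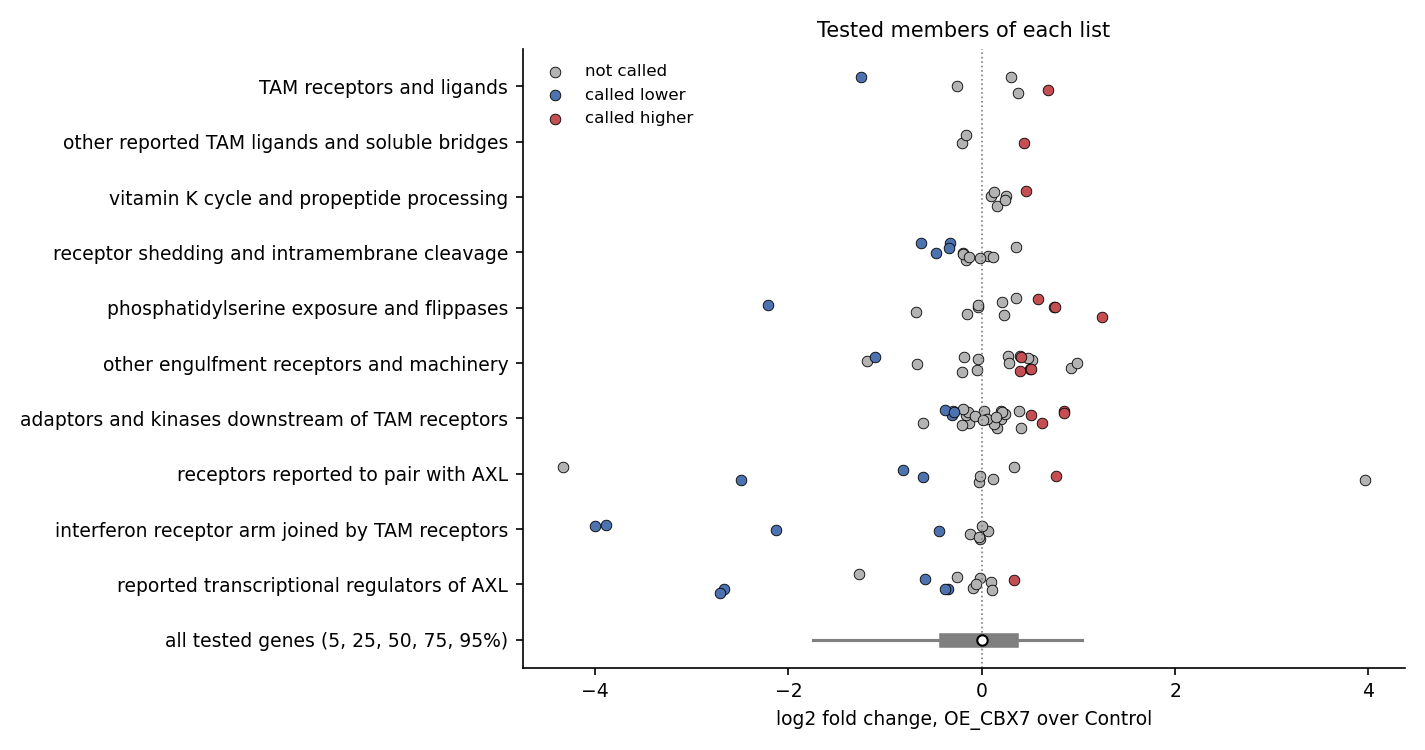
Log2 fold change, OE_CBX7 over Control, of each tested gene (points, jittered vertically) in the TAM family and in the lists of pathway genes. Red points were called higher, blue points lower and grey points not called, and the bottom row gives percentiles of all tested genes. The largest called fall among the pathway genes is that of SOCS1 at -4.00.

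Most genes that mature the ligands did not pass the test. Of 6 genes of the vitamin K cycle and propeptide processing, 1 was higher and 5 were not called (median log2 fold change 0.20). The share called was 16.7%, beside 24.4% of all genes. VKORC1, which regenerates the reduced vitamin K needed to carboxylate the Gla domain, was at 98.7 ± 6.79 CPM in OE_CBX7 cells and 71.7 ± 8.75 CPM in Control cells (SD, n = 2), a log2 fold change of 0.46 (edgeR adjusted p = 0.0112). It lost the call without OE_CBX7 library 2 (edgeR adjusted p = 0.101) and without Control library 1 (0.0503), while without Control library 2, and with library totals, upper quartile factors, DESeq2 or a replicate block, 2 genes of the list were higher. The carboxylase GGCX was at 56.4 ± 0.0253 CPM in OE_CBX7 cells and 52.8 ± 7.60 CPM in Control cells (edgeR adjusted p = 0.630). Among other proteins reported to bridge to TAM receptors or to phosphatidylserine, MFGE8 rose with a log2 fold change of 0.44 (edgeR adjusted p = 0.0348) and 2 tested genes, LGALS3 among them, were not called. In this small list 33.3% were called, beside 24.4% of all genes. MFGE8 lost the call without OE_CBX7 library 1 (0.0790), OE_CBX7 library 2 (0.235) or Control library 1 (0.153).

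Genes of receptor shedding, which release the outer part of AXL and MERTK from the cell and then cut the stub in the membrane, were in part lower. Of 12 tested, 4 were lower and 8 not called (median log2 fold change -0.18). Thus 33.3% of the list were called lower, beside 13.9% of all genes. ADAM17, a sheddase, was at 136 ± 3.10 CPM in OE_CBX7 cells and 190 ± 18.5 CPM in Control cells (SD, n = 2), a log2 fold change of -0.48 (edgeR adjusted p = 0.00384). RHBDF2, an iRhom that carries ADAM17 to the surface, fell by 0.62 on the log2 scale (edgeR adjusted p = 0.00162). RHBDF1, also an iRhom gene, had a log2 fold change of -0.19 and was not called (edgeR adjusted p = 0.301). ADAM10, also a sheddase, was at 386 ± 27.2 CPM in OE_CBX7 cells and 370 ± 34.8 CPM in Control cells (edgeR adjusted p = 0.733). The gamma-secretase subunit APH1A had a log2 fold change of -0.34 (edgeR adjusted p = 0.0328). It lost the call without OE_CBX7 library 1 (edgeR adjusted p = 0.148), OE_CBX7 library 2 (0.235) or Control library 2 (0.124), as well as with library totals (0.0784) and upper quartile factors (0.0689). The list held 2 lower genes in each of these cases. With either of these scalings 1 gene of the list was called higher.

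Genes that expose or hide phosphatidylserine, the lipid that the ligands bind, moved both ways. Of 12 tested, 3 were higher, 1 lower and 8 not called (median log2 fold change 0.22). Calls in either direction made up 33.3%, beside 24.4% of all genes. The largest change was that of PLSCR1, a phospholipid scramblase family member and a known interferon-induced gene, at 89.5 ± 9.46 CPM in OE_CBX7 cells and 414 ± 29.6 CPM in Control cells (SD, n = 2), a log2 fold change of -2.21 (edgeR adjusted p = 1.95e-09). The flippases ATP8B1 and ATP11A, which move phospholipids to the inner leaflet, rose with log2 fold changes of 0.76 and 0.58 (edgeR adjusted p of 0.000463 and 0.00254). ATP8A1 had a log2 fold change of 1.24 at 2.81 ± 1.33 CPM in OE_CBX7 cells and 1.19 ± 0.149 CPM in Control cells. It lost the call without OE_CBX7 library 1 (edgeR adjusted p = 0.484), Control library 1 (0.147) or Control library 2 (0.0930), and with limma-voom (0.0743). XKR8, the scramblase cleaved in apoptosis, was not called (edgeR adjusted p = 0.0675).

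Of 18 tested genes of other engulfment receptors and their machinery, 4 were higher, 1 lower and 13 not called (median log2 fold change 0.34). The 27.8% called lay near the 24.4% of all genes. The lower gene was CD47, the surface signal that restrains phagocytes, at 60.8 ± 3.44 CPM in OE_CBX7 cells and 131 ± 20.6 CPM in Control cells (SD, n = 2), a log2 fold change of -1.11 (edgeR adjusted p = 1.59e-05). The lipoprotein receptors SCARB1 and LRP1 and the Rac exchange factor DOCK1 rose with log2 fold changes of 0.41, 0.49 and 0.40. Without OE_CBX7 library 1 these lost the call (edgeR adjusted p of 0.0971, 0.0627 and 0.150), leaving 1 higher gene in the list, the adaptor GULP1. GULP1 lost it without Control library 2 (edgeR adjusted p = 0.0995). Without OE_CBX7 library 2 the list held 2 lower genes.

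Downstream of the receptors, 4 of 27 tested adaptors and kinases were higher, 3 lower and 20 not called (median log2 fold change 0.06). The 25.9% called was close to the 24.4% of all genes. TNS2, a tensin reported to bind AXL, was at 37.2 ± 0.466 CPM in OE_CBX7 cells and 20.6 ± 2.12 CPM in Control cells (SD, n = 2), a log2 fold change of 0.85 (edgeR adjusted p = 0.000217). PIK3R2, a regulatory subunit of phosphoinositide 3-kinase, rose with a log2 fold change of 0.85, the guanine nucleotide exchange factor VAV3 with 0.63 and the kinase SRC with 0.51 (edgeR adjusted p of 0.000241, 0.00200 and 0.00210). These 4 kept their calls with each library left out. The lower genes were SHC1, CRKL and PTK2, adaptors and focal adhesion kinase, with log2 fold changes of -0.31, -0.38 and -0.29. They were named after their values were seen, and the number of lower genes fell to 1 without OE_CBX7 library 1, to 0 without OE_CBX7 library 2 or Control library 1, and to 2 without Control library 2. It was 0 with library totals and 1 with upper quartile factors. The adaptor GRB2, which binds phosphorylated AXL, had a log2 fold change of 0.02 (edgeR adjusted p = 0.923).

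Of 10 receptors reported to pair with AXL, 3 were lower, 1 higher and 6 not called (median log2 fold change -0.02). Calls in either direction made up 40%, beside 24.4% of all genes. MET, the hepatocyte growth factor receptor, was at 401 ± 27.8 CPM in OE_CBX7 cells and 708 ± 75.3 CPM in Control cells, and EGFR at 276 ± 8.67 CPM in OE_CBX7 cells and 421 ± 24.2 CPM in Control cells (SD, n = 2 each). Their log2 fold changes were -0.82 and -0.61 (edgeR adjusted p of 6.54e-05 and 0.000334). IL15RA, the interleukin 15 receptor chain, fell by 2.49 on the log2 scale (edgeR adjusted p = 1.73e-07). The insulin receptor INSR rose with a log2 fold change of 0.76 (edgeR adjusted p = 0.00475). These calls held with each library left out.

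In dendritic cells TAM receptors act through the interferon receptor to induce SOCS genes. Of 9 tested genes of that arm, 4 were lower and 5 not called (median log2 fold change -0.12). Thus 44.4% of the list were called lower, beside 13.9% of all genes. The signalling inhibitors SOCS1 and SOCS3 had log2 fold changes of -4.00 and -2.13 (edgeR adjusted p of 7.82e-06 and 1.87e-07), and the receptor chain IFNAR2 one of -0.44 (edgeR adjusted p = 0.00950). IFNAR1, the chain reported to join AXL, was at 50.6 ± 0.665 CPM in OE_CBX7 cells and 51.2 ± 1.68 CPM in Control cells (edgeR adjusted p = 0.931). The IFNAR2 call was lost without OE_CBX7 library 1 (edgeR adjusted p = 0.0798) or OE_CBX7 library 2 (0.107).

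Of 13 factors reported to regulate AXL transcription, 5 were lower, 1 higher and 7 not called (median log2 fold change -0.26). The share called was 46.2%, beside 24.4% of all genes. The AP-1 subunits FOSL1 and JUN were at 17.8 ± 1.22 and 17.8 ± 0.339 CPM in OE_CBX7 cells, against 117 ± 3.86 and 113 ± 13.7 CPM in Control cells (SD, n = 2 each), with edgeR adjusted p of 4.91e-10 and 1.17e-09. ZEB1, a repressor of epithelial genes, had a log2 fold change of -0.59 (edgeR adjusted p = 0.00636), lost without Control library 1 (0.0604). The other 2 lower genes, YAP1 and SP3, named after their values were seen, had log2 fold changes of -0.38 and -0.35, and the list held 3 lower genes without OE_CBX7 library 1 or OE_CBX7 library 2 and 2 without Control library 1. HIF1A had a log2 fold change of 0.34 and was not called without OE_CBX7 library 1 (edgeR adjusted p = 0.106), OE_CBX7 library 2 (0.0573) or Control library 2 (0.0881). TEAD1 and WWTR1, which act with or beside YAP1, and SP1, the GC box factor, had log2 fold changes of -0.10, -0.02 and -0.26 and were not called (edgeR adjusted p of 0.560, 0.919 and 0.0937).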

How the data were processed

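RNA sequencing of 2 OE_CBX7 and 2 Control libraries of A549 cells was analysed from 1 deposited table of estimated counts per gene, not scaled by the authors. The tools named, per the submitters' processing notes, are StringTie 2.2.1, HISAT2 2.2.1 and DESeq2, with the build hg38 and no role for any. Annotation and strand settings were not given in the sources used here. Each of the values was already whole, so rounding changed none, and 0 columns belonged to no sample.

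After filterByExpr and TMM scaling, genes were tested with edgeR 4.0.16 in R 4.3.3 (quasi-likelihood, robust, group as the only term, all 4 libraries), with Benjamini-Hochberg adjustment over 17271 genes and a call at an adjusted p under 0.05. The standard error is the fitted change divided by the root of F. Changes relative to AXL used limma 3.58.1 (robust eBayes, prior count 2). Both tests were checked on counts drawn with known changes. Intervals of 95% cover the spread between libraries only, and the floor of 3 counts covers counting error only.

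Positions and promoters came from RefSeq (GRCh38.p14) and transcript lengths and 50-base words from GENCODE 29. Alternatives were library totals, DESeq2 size factors, upper quartile factors, no filter, a mean count of 50 or more, DESeq2 1.42.0, limma-voom, no robust estimation, a replicate block and each library left out. Transcript length by the longest transcript was added after seeing the data.

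The genes and lists were chosen with earlier results of these data known. The text names every TAM gene, CBX7, partners that share or overlap their sequence, up to 4 called genes with the smallest p in each list, and the 3 nearest profiles per TAM gene; others named were chosen after their values were seen. Some genes that the rule names are not reported here.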

Additional observations from a re-analysis of the deposited data

How the results depend on the processing

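The log2 fold changes of the 5 TAM genes kept their direction and their side of the threshold under all 13 alternatives to the edgeR fit. With each library left out, that of AXL ran from -1.26 to -1.23, of PROS1 from 0.67 to 0.72, of MERTK from -0.36 to -0.15, of TYRO3 from 0.18 to 0.43 and of GAS6 from 0.30 to 0.48. The number of genes called higher over the whole table ran from 1021 to 1790 and of those called lower from 1689 to 2134. The change of MERTK minus that of AXL ran from 0.87 to 1.11 and was past the threshold in 2 of these 4 fits; those of TYRO3, GAS6 and PROS1 stayed past it. Leaving out a library leaves 1 sample in its group, which is then assumed to vary like the other group.

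The replicate numbers are shared between groups but nothing says that they pair samples, and the differences between replicates 1 and 2 correlated with r = 0.0281 between the groups over 17271 genes. With a replicate block AXL was at -1.25 and PROS1 at 0.69, with no changed call among the TAM genes, and 2100 genes were higher and 2503 lower. Of 481 refits of 37 further genes, CBX7 and each called pathway gene, 427 kept their call, 54 lost it and 0 changed direction. The cause of lost calls was not tested. Alternatives were not run for the neighbouring genes, the nearest profiles or pathway genes that were not called. GAS6 and MERTK had no more than 707 counts in any library, and their intervals were the widest of the 5 TAM genes.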
